A study of Homo sapiens with 6 samples.

Results

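The receptors, binding proteins and docking adaptors of the insulin-like growth factors (IGFs) were examined in a pair of cybrids, cells made by fusing a nucleus from a given line with mitochondria from another. The genes were IGF1R, IGF2R, IGFBP2 to IGFBP7, IRS1 and IRS2. They are 10 of 19775 genes with a name here, and were found as the 27 probe sets, of 54675 on the array, that the platform's probe table assigns to a single symbol among them. Both cybrids carried the nucleus of the thymidine-kinase-deficient osteosarcoma line 143B in its form without mitochondrial DNA (p0), and both were selected in bromodeoxyuridine without uridine after fusion. The 10A/143B cybrid held mitochondria of MCF10A, a non-cancerous breast epithelial line, and the 468/143B cybrid those of the breast cancer line MDA-MB-468. Donor cells had been treated with actinomycin-D before fusion, and how many clones make up each cybrid is not given in the sources used here. RNA was measured on 3 arrays per cybrid, whose cell line label names the mitochondrial donor. The series' title asks whether non-cancerous mitochondria restrain oncogenic pathways of metastatic cells.

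IGF1R is the receptor tyrosine kinase through which IGF1 and IGF2 drive growth and survival, and the pathway is active in bone and in osteosarcoma. IGF2R, the mannose-6-phosphate receptor, has no kinase and takes IGF2 to the lysosome. The IGFBPs are secreted proteins that hold IGFs outside the cell and either block them or prolong their presence, and proteases such as PAPPA cut some of them to free the ligand. IRS1 and IRS2 are docked to the active receptor and recruit PI3K, which activates AKT, while GRB2 and SOS pass the signal to RAS.

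Replicates 2 and 3 of each cybrid were nearly identical. The SD of their log2 difference, over 9187 probe sets whose level averaged above 8, came to 0.0788 for 10A/143B and 0.0922 for 468/143B, against 0.263 to 0.289 for pairs with replicate 1. They were therefore averaged and counted as 1 sample, which left 2 samples against 2. P-values measure only the spread between these samples, which may be technical. Array medians ranged from 21.7 to 24.4 for 10A/143B and from 20.4 to 21.4 for 468/143B. Of 8 epithelial markers, the type of the mitochondrial donors, 5 lay below the median level of all probe sets, and the basal keratin KRT5 was at the lowest intensity, 1, on every 10A/143B array. The simple keratin KRT18 was bright, at 4705 to 5149 for 10A/143B and 5914 to 6427 for 468/143B, and KRT8 stood at 164.3 to 230.7 and 407.3 to 461.4. KRT18 made up most of the sum of the list, which was 4963 to 5455 for 10A/143B and 6407 to 6972 for 468/143B. In 10A/143B 2 of the 8 were lower (KRT8 and KRT18) and 0 higher. The mesenchymal and osteoblast list summed to 11070 to 11850 and 11600 to 13050, with 1 of 8 lower (SPARC) and 0 higher. These 3 marker calls were lost without replicate 1 of either cybrid (adjusted p from 0.0511 to 0.283). The blood and endothelial list summed to 207 to 227 and 144 to 204, with 0 of 5 passing in limma, 0 at an unadjusted p under 0.05 and 1 with 6 separate arrays. The part of these markers in the results below was not tested.

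IGFBP2, IGFBP3, IGFBP4, IGFBP6 and IGFBP7 were lower in 10A/143B, by 1.92-fold to 4.38-fold on the probe sets that passed. IGF1R and IRS1 passed as higher on only part of their probe sets. Passing means an adjusted p of at most 0.05 in limma, with Benjamini-Hochberg adjustment over all 54613 probe sets that are no controls. Differences are 10A/143B minus 468/143B in log2(intensity + 16), given with the standard error (SE), n = 2 samples per cybrid, and folds are on that scale, which understates the change of dim probe sets. Of the 27 probe sets 9 passed (33.3%), 3 higher and 6 lower in 10A/143B, against 15.8% of all probe sets (10.7% higher and 5.08% lower). Among all probe sets whose mean over the 6 arrays lay at or above the median level, where 19 of the 27 stood, 30.0% passed, against 9 of those 19 (47.4%). Whether these shares differ was not tested, and several of the 19 measure the same gene. The median difference of the 27 was -0.14, and that of all probe sets 0.01. With the 6 arrays entered separately 14 passed (51.9%, all 9 among them), against 28.0% of all probe sets. Arrays of the cybrids did not overlap for 16 of the 27 (59.3%), 6 higher and 10 lower in 10A/143B, against 40.3% of all probe sets. The share of all calls with the higher level in 10A/143B was 67.8% on the deposited scale and 56.4% after quantile normalization, when 3 IGF probe sets were higher and 8 lower.

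**Figure D1:**
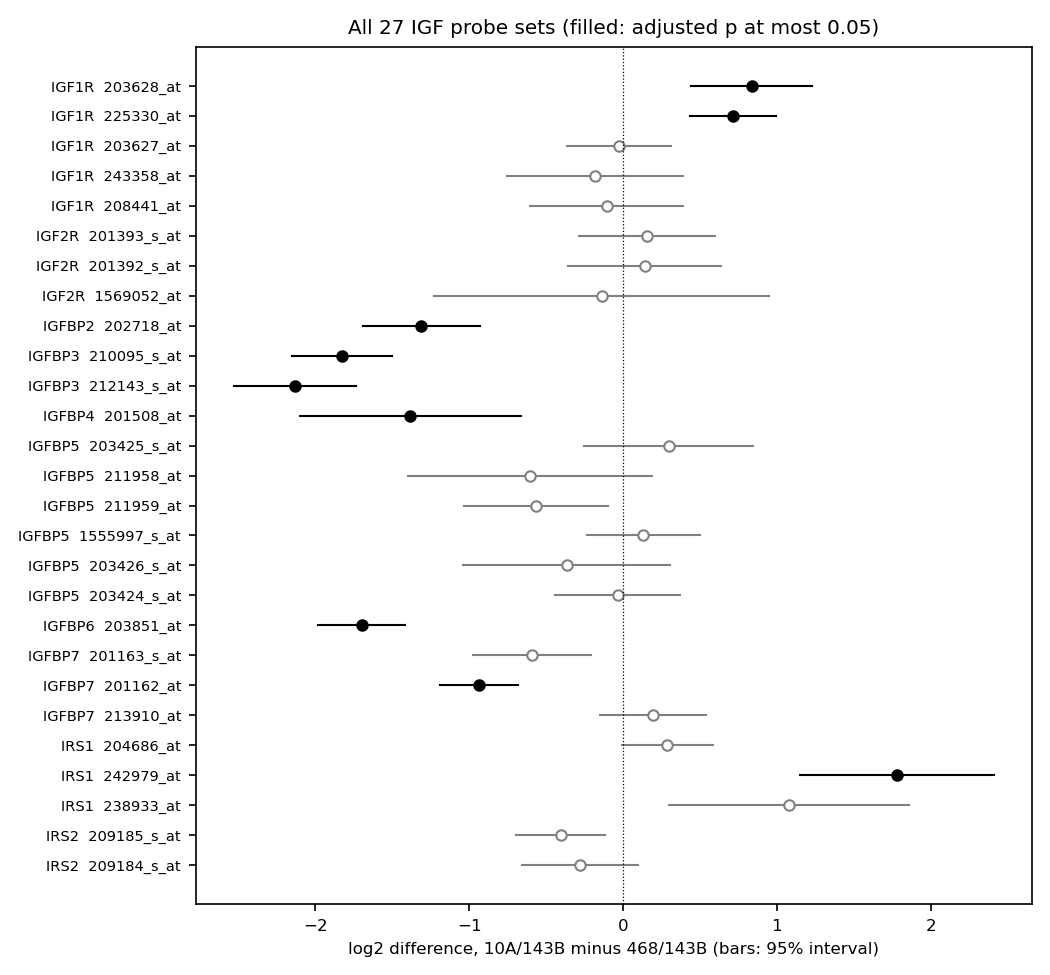
Log2 difference (10A/143B minus 468/143B) of all 27 IGF probe sets, ordered by gene, with 95% intervals from limma and filled points where the adjusted p was at most 0.05. Filled points lie left of 0 for 5 binding protein genes and right of 0 for 2 probe sets of IGF1R and 1 of IRS1, and the IGFBP3 probe set 212143_s_at is farthest left at -2.13.

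The letters before the transcription starts of the genes with passing probe sets are shown as context for members that moved together. RefSeq (GRCh38.p14) promoter windows were held for 9 of the 10 genes in 11 entries, and IGFBP7 was not matched. The 150 bases up to the start are given 5′ to 3′ on the gene's strand for IGFBP3 (chr7:45921273-45921422, minus strand), IGFBP6 (chr12:53097517-53097666, plus strand), IGFBP4 (chr17:40443300-40443449, plus strand), IGFBP2 (chr2:216633270-216633419, plus strand), IGF1R (chr15:98648389-98648538, plus strand) and IRS1 (chr2:226799821-226799970, minus strand). IGFBP2 has 3 entries, and the one that lies in the middle is shown. Capitals mark GGGCGG, the core of a GC box, and TATAAA, on either strand.
IGFBP3: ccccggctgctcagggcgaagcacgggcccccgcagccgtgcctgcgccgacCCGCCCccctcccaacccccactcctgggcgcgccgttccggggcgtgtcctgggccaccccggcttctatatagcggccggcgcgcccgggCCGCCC
IGFBP6: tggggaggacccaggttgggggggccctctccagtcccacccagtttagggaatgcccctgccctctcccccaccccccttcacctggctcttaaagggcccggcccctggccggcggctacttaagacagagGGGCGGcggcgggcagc
IGFBP4: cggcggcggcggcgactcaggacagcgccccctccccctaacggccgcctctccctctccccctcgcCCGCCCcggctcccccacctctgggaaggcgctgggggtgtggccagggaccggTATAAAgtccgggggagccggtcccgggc
IGFBP2: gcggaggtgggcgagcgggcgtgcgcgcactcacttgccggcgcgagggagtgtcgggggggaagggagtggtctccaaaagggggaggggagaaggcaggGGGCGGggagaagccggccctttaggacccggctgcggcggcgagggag
IGF1R: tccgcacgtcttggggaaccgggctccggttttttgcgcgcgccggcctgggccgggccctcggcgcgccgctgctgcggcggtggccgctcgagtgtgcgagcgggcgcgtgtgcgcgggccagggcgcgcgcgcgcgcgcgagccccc
IRS1: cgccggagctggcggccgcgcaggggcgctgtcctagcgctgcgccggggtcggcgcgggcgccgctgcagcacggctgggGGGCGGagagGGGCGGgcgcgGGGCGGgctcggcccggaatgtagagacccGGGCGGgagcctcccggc
In the 250 bases before the start, GGGCGG on either strand was found in 9 of the 11 entries, against 42.6% of 35116 RefSeq entries. The GC content of the 11 ran from 56.4% to 81.2%, against a median of 58% over all entries, and its part in the matches was not tested. It occurred 2 times for IGFBP3, 1 time each for IGFBP4 and IGFBP6, 1 time in 2 of the 3 IGFBP2 entries, and 2, 4, 5 and 6 times for IGF1R, IRS1, IRS2 and IGF2R. TATAAA was found in IGFBP4 alone of the 11 entries, against 10.7% of all entries. The E-box CACGTG was found in IGF2R alone, 3 times (6.34% of all entries), and ACGTG, which overlaps it, in IGF2R and IGF1R (18.5%). GGGCGG was not found for IGFBP5. GC boxes were thus found both for genes with a passing probe set and for IGF2R and IRS2, which had none. The matches are letters only and mark no binding.

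Among the binding proteins, IGFBP3 changed most. IGFBP3 is the main IGF carrier of the circulation and also limits growth of cells on its own. On its brighter probe set (210095_s_at) the intensities of replicates 1, 2 and 3 were 342.5, 313.0 and 282.1 in 10A/143B and 1243, 1128 and 1082 in 468/143B. On the other (212143_s_at) they were 97.7, 112.2 and 121.1 against 487.8, 556.4 and 560.3. Every 10A/143B array lay far below every 468/143B array on both probe sets. The differences were -1.83 ± 0.14 (3.55-fold lower, adjusted p = 7.57e-04) and -2.13 ± 0.17 (4.38-fold lower, adjusted p = 8.33e-04).

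IGFBP6, which binds IGF2 with preference over IGF1, had intensities of 401.7, 362.0 and 374.8 in 10A/143B and of 1287, 1287 and 1278 in 468/143B. The arrays of each cybrid lay close together, with a wide gap between the cybrids. IGFBP6 was 3.25-fold lower (-1.70 ± 0.12, adjusted p = 7.1e-04).

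IGFBP2, a binding protein often abundant in tumours, had intensities of 235.6, 317.4 and 302.3 in 10A/143B against 689.8, 699.4 and 699.4 in 468/143B. It was 2.48-fold lower (-1.31 ± 0.16, adjusted p = 0.00243). IGFBP4, an inhibitor of IGF action that PAPPA cleaves, had intensities of 102.5, 183.5 and 192.7 against 304.4, 501.5 and 491.1. Replicate 1 was the lowest array of both cybrids for IGFBP4, and the cybrids still did not overlap. IGFBP4 was 2.60-fold lower (-1.38 ± 0.31, adjusted p = 0.0216, and 3.05e-04 with the replicate block). The call was lost without replicate 1 of 10A/143B (-0.99, adjusted p = 0.16) or of 468/143B (-1.72, adjusted p = 0.0581).

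IGFBP7, which binds IGFs weakly and is laid down in vessel walls and matrix, was measured by 3 probe sets. On 201162_at the intensities were 989.1, 903.9 and 948.8 in 10A/143B and 1795, 1924 and 1884 in 468/143B, 1.92-fold lower in 10A/143B (-0.94 ± 0.11, adjusted p = 0.0020). On the brightest, 201163_s_at, they were 1746, 1270 and 1218 against 2369, 2106 and 2091. The arrays did not overlap there either, but replicate 1 was the highest array of both cybrids, and the difference of -0.59 ± 0.17 just missed the threshold (adjusted p = 0.0502). It passed with the replicate block (adjusted p = 0.00308) and with 6 separate arrays (adjusted p = 0.00561). The remaining probe set, 213910_at, stood between 1.96 and 7.46 on all arrays and differed by 0.20 ± 0.15 (adjusted p = 0.471).

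IGFBP5, a binding protein of bone matrix, was dim on all 6 of its probe sets, each of which lay below the median level, with intensities from 1 to 28.6 over all arrays. In limma 0 of the 6 passed (1 at an unadjusted p under 0.05), with differences from -0.60 to 0.30 (adjusted p from 0.11 to 0.933). The arrays did not overlap on 211959_at alone (-0.56 ± 0.20), which passed only with 6 separate arrays (adjusted p = 0.0485). No detection calls were used here, so these levels could not be told from background. In all, 6 of the 14 probe sets of IGFBP2 to IGFBP7 passed, all lower in 10A/143B and 0 higher. Of all probe sets 5.08% passed as lower and 10.7% as higher. The 6 belong to 5 genes, with IGFBP3 counted on both of its probe sets, and 7 of the 14 lay below the median level.

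**Figure D2:**
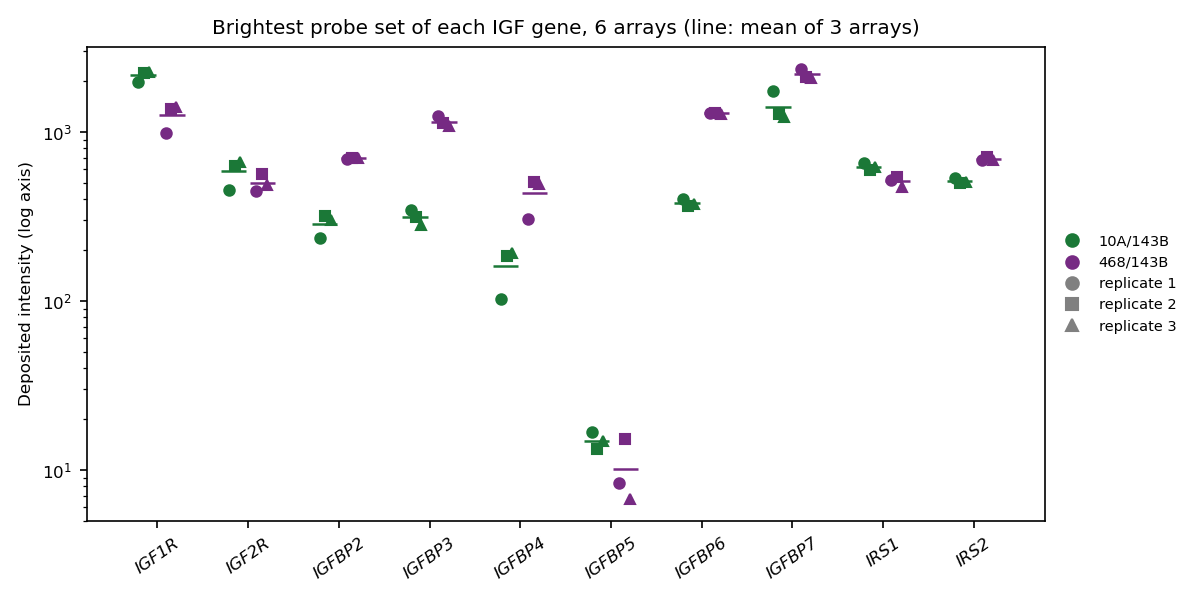
Deposited intensity on a log axis of each gene's brightest probe set. Green points are 10A/143B arrays and purple points 468/143B arrays, with marker shape by replicate and a line at the mean of 3 arrays. Levels of different genes are not comparable on arrays. Purple points lie above green ones for IGFBP2, IGFBP3, IGFBP4, IGFBP6, IGFBP7 and IRS2, below them for IGF1R and IRS1, and among them for IGF2R and IGFBP5.

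IGF1R was higher in 10A/143B on its brightest probe sets. On 203628_at the intensities were 1965, 2241 and 2272 in 10A/143B and 989.1, 1370 and 1409 in 468/143B, a 1.79-fold difference (0.84 ± 0.17, adjusted p = 0.0143). On 225330_at they were 1252, 1252 and 1333 against 719.1, 786.9 and 855.1, a 1.64-fold difference (0.72 ± 0.12, adjusted p = 0.00705). The arrays did not overlap on either, and both passed with the replicate block (adjusted p = 5.36e-04 and 0.00125). The other 3 probe sets of IGF1R were not higher in 10A/143B. On 203627_at, which was nearly as bright, the intensities were 776.0, 760.1 and 861.1 against 714.1, 922.9 and 897.6, with overlapping arrays (-0.02 ± 0.15, 95% interval -0.36 to 0.31). The dimmer 243358_at and 208441_at differed by -0.18 ± 0.25 and -0.11 ± 0.21. Without replicate 1 of either cybrid neither passing probe set was called (adjusted p of 0.0911 and 0.127 for 203628_at, 0.0619 and 0.096 for 225330_at). As the mean of its 5 probe sets IGF1R differed by 0.25 (adjusted p = 0.213), so its call rests on the probe set.

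IGF2R did not pass on any of its 3 probe sets, 0 of which had an unadjusted p under 0.05. On the brightest, 201393_s_at, the intensities were 451.9, 630.3 and 666.3 in 10A/143B and 448.8, 560.3 and 487.8 in 468/143B, with a difference of 0.16 ± 0.19 and a 95% interval of -0.29 to 0.60 (adjusted p = 0.678). Replicate 1 was the lowest array of both cybrids, and the cybrids overlapped. The others gave 0.14 ± 0.21 (201392_s_at) and -0.14 ± 0.47 (1569052_at).

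The adaptors went opposite ways in value. IRS1 had intensities of 652.6, 592.2 and 621.7 in 10A/143B against 519.1, 537.5 and 474.4 in 468/143B on its brightest probe set, 204686_at. All 10A/143B arrays were higher, but the difference of 0.29 ± 0.13 did not pass (adjusted p = 0.191, but 0.0318 with 6 separate arrays). On 242979_at the intensities were 97.0, 117.0 and 128.9 against 17.9, 25.3 and 21.1, a 3.44-fold difference (1.78 ± 0.27, adjusted p = 0.00477). That call was lost without replicate 1 of 10A/143B (adjusted p = 0.0528) or of 468/143B (adjusted p = 0.0572). On 238933_at they were 42.5, 56.5 and 69.1 against 10.7, 18.5 and 27.3 (1.08 ± 0.34, adjusted p = 0.0728, but 0.0196 with the replicate block and 0.0108 with 6 separate arrays). The 10A/143B arrays were thus above the 468/143B arrays on all 3 probe sets of IRS1, and the size of the difference varied widely among them.

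IRS2 had intensities of 533.7, 494.6 and 505.0 in 10A/143B and of 680.3, 709.2 and 685.0 in 468/143B on 209185_s_at. Every 10A/143B array was lower, and the difference of -0.40 ± 0.12 did not pass (adjusted p = 0.0706), although it did with the replicate block (adjusted p = 0.0373), with 6 separate arrays (adjusted p = 0.00201) and after median centring (-0.49, adjusted p = 0.048). Its other probe set, 209184_s_at, differed by -0.28 ± 0.16 (adjusted p = 0.333).

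**Figure D3:**
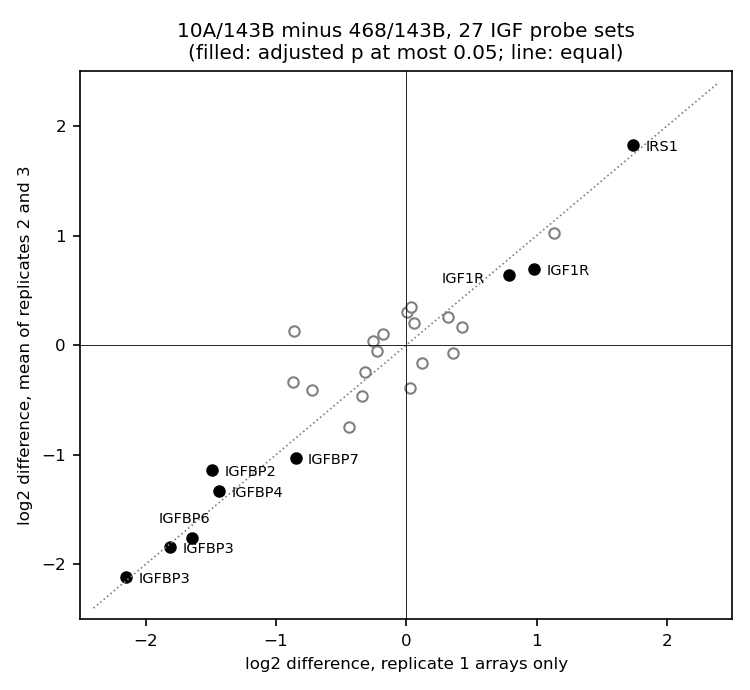
Log2 difference (10A/143B minus 468/143B) of the 27 probe sets from the replicate 1 arrays alone (horizontal) and from the mean of replicates 2 and 3 (vertical), with a dotted line where both are equal and filled points where the adjusted p was at most 0.05. All 9 filled points have the same sign on both axes, which passing largely requires, and run from -2.15 and -2.11 for IGFBP3 to 1.74 and 1.83 for IRS1.

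The replicates that stood apart were also compared by themselves. From the replicate 1 arrays alone the differences were -1.81 and -2.15 for the IGFBP3 probe sets, -1.64 for IGFBP6, -1.49 for IGFBP2, -1.44 for IGFBP4 and -0.85 for IGFBP7 (201162_at). From replicates 2 and 3 they were -1.84 and -2.11, -1.76, -1.13, -1.33 and -1.03. Those of IGF1R were 0.98 and 0.79 in replicate 1 and 0.69 and 0.64 in replicates 2 and 3. All 9 passing probe sets had the same sign in both, but these are the samples of the fit, so passing largely requires it. Of the 27, 21 had the same sign, and this share was not counted over all probe sets. Without replicate 1 of either cybrid in turn, 5 of the 9 stayed called in both cases, namely those of IGFBP2, IGFBP3, IGFBP6 and IGFBP7 (201162_at). Calls fell without replicate 1 of either cybrid over all probe sets as well as among the 27, and such fits leave 1 sample in that cybrid. The probe sets called higher, those of IGF1R and IRS1, lost their calls there.

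Of the 10 measured neighbours of the 5 lower binding protein genes, 2 passed as higher and 0 as lower in limma (1 of the 8 others had an unadjusted p under 0.05). Of all 19775 genes 12.6% passed as higher and 7.55% as lower, and 10 neighbours are too few to set against these shares. IGFBP2 lies next to IGFBP5 on chromosome 2, and the measured neighbour on its other side, the ribosomal protein gene RPL37A, differed by 0.13 ± 0.10 (adjusted p = 0.46). IGFBP3 lies next to IGFBP1 on chromosome 7, which had -0.34 ± 0.25 (adjusted p = 0.454), and the tensin gene TNS3 on the other side had 0.38 ± 0.14 (adjusted p = 0.123). Next to IGFBP4 on chromosome 17, TOP2A, a DNA topoisomerase of dividing cells, was higher (0.46 ± 0.12, adjusted p = 0.0415, but 0.0737 and 0.297 without replicate 1 of 10A/143B and of 468/143B) and TNS4 had -0.52 ± 0.25 (adjusted p = 0.248). Next to IGFBP6 on chromosome 12, SPRYD3 had 0.44 ± 0.19 and SOAT2 -0.09 ± 0.21. Next to IGFBP7 on chromosome 4, POLR2B, a subunit of RNA polymerase II, was higher (0.91 ± 0.12, adjusted p = 0.00308, but 0.0576 without replicate 1 of 468/143B), and the antisense gene IGFBP7-AS1 had -0.12 ± 0.20. Of the genes beside IRS1, RHBDD1 was higher (0.99 ± 0.22, adjusted p = 0.02, but 0.155 and 0.153 without replicate 1 of 10A/143B and of 468/143B) and LOC646736 had 0.33 ± 0.32. FAM169BP and LUNAR1, beside IGF1R on chromosome 15, had 0.10 ± 0.30 and -0.07 ± 0.22.

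Gene length moved with the differences. Protein-coding genes whose log2 level averaged above 7 were put in 10 classes of length, from 1 (shortest) to 10, with 774 or 775 genes each. IGFBP6, IGFBP3 and IGFBP4 fell in classes 1, 2 and 3, whose median differences were -0.27, -0.23 and -0.14. IGFBP2 fell in class 5 (median -0.01), and IGF1R in class 10 (median 0.45). IGFBP7 and IRS1 were both in class 8 (median 0.35), so IGFBP7 was lower in 10A/143B against a class that was higher. IGF2R fell in class 9 (median 0.41) and differed by 0.16, and IRS2 in class 6 (median 0.09) and differed by -0.40, and neither passed. The dim IGFBP5 matched class 4 by length (median -0.02). The part of gene length in these results was not tested.

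The genes whose levels followed IGF1R most closely over the 6 arrays (root mean square difference of mean-centred log2 values, brightest probe set of each gene) were B3GALNT1 (0.0386), LDB2 (0.0458) and MSH6 (0.0464). For IGFBP3 they were CPPED1 (0.0695), DDIT3 (0.078) and HSD11B1L (0.0784). With 6 arrays in 2 groups this measure is dominated by the difference between the cybrids.

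The other genes of the pathway were described by a list of 47, of which 42 had a probe set with a single symbol. By the brightest probe set 11 were higher and 3 lower in 10A/143B, against 12.6% and 7.55% of all 19775 genes, and their median difference was 0.10 against -0.02 for all genes. Fewer passed without replicate 1 of either cybrid, among these as among all genes, and such fits leave 1 sample in that cybrid. With the replicate block 12 were higher and 6 lower, against 3133 and 2260 of all 19775 genes. GRB10 counts among the 11, although its probe sets passed in opposite directions. IGF2 was not named here because its probe sets carry a further symbol.

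Neither ligand measured passed. IGF1 differed by 0.35 ± 0.30 on its brightest probe set (adjusted p = 0.532). Intensities there were 27.1, 38.1 and 38.9 in 10A/143B and 24.6, 17.0 and 21.9 in 468/143B. Dimmer probe sets of IGF1 gave 0.27, 0.03, 0.20 and -0.73 and did not pass, the last narrowly (-0.73 ± 0.20, adjusted p = 0.0508). INS, the insulin gene, stood below the median level (-0.31 ± 0.31). INSR, the insulin receptor, which can pair with IGF1R, was higher on its brightest probe set, with 86.8, 85.6 and 95.0 against 41.9, 35.3 and 43.1 (0.89 ± 0.24, adjusted p = 0.0448). That call was lost on leaving out 10A/143B replicate 1 or 3 (adjusted p = 0.15 and 0.0556) or 468/143B replicate 1 or 2 (adjusted p = 0.203 and 0.0606). Its other 4 probe sets had differences from -0.28 to 0.27, and none passed (adjusted p from 0.614 to 0.774). Of the other binding proteins, IGFBP1, IGFBPL1 and IGFALS, 0 of 3 passed in limma, at an unadjusted p under 0.05 or with 6 separate arrays.

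The stanniocalcins, secreted inhibitors of PAPPA and PAPPA2, went opposite ways. STC2 had intensities of 464.6, 487.8 and 474.4 in 10A/143B and 1722, 1992 and 1884 in 468/143B, and was lower (-1.91 ± 0.12, adjusted p = 6.65e-04). STC1 had 451.9, 584.1 and 596.3 against 190.0, 151.2 and 166.6, and was higher (1.49 ± 0.18, adjusted p = 0.00241). The arrays overlapped for neither. PAPPA, PAPPA2, HTRA1 and HTRA3, proteases that cut IGFBPs, did not pass, with differences from -0.07 to 0.59.

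Of 13 further adaptors and regulators 4 were higher, GRB10 among them, and 1 lower by the brightest probe set. Of all genes 12.6% passed as higher and 7.55% as lower, and whether the shares differ was not tested. With the replicate block, 5 were higher and 3 lower, against 3133 and 2260 of all 19775 genes. SOS1, the exchange factor that activates RAS, had intensities of 505.0, 445.7 and 439.6 against 64.4, 54.6 and 70.5 (2.62 ± 0.17, adjusted p = 6.65e-04). A further probe set of SOS1 was also higher (1.98 ± 0.29), whereas its other 3 gave 0.26, 0.25 and -0.17 and did not pass. PTPN11, the phosphatase SHP2 that relays receptor signals to RAS, was higher on 3 of its 6 probe sets (1.46 ± 0.12 on the brightest, adjusted p = 9.02e-04). GRB10, an adaptor that restrains IGF1R and the insulin receptor, was 1.47 ± 0.14 higher on its brightest probe set. Others of GRB10 passed the opposite way (-0.89 ± 0.14 and -1.09 ± 0.17), so it has no settled direction. SOS2 was higher by 1.08 ± 0.23 (adjusted p = 0.0179, but 0.076 and 0.127 without replicate 1 of 10A/143B and of 468/143B). That was the brightest probe set of SOS2, and its others, from -0.33 to 0.47, did not pass. SOCS2, a suppressor of growth factor and cytokine signalling, was lower (-0.50 ± 0.12, adjusted p = 0.0315), also on a further probe set (-1.05 ± 0.24). Its brightest probe set lost the call without replicate 1 of 10A/143B (adjusted p = 0.091) or of 468/143B (adjusted p = 0.217).

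In the PI3K and AKT branch 4 of 13 measured genes were higher and 0 lower, against 12.6% and 7.55% of all genes. These 4 lost their calls without replicate 1 of either cybrid, when calls also fell over all genes and that cybrid held 1 sample. The 4 were the PI3K subunits PIK3R1 (1.04 ± 0.29, adjusted p = 0.04995), PIK3CB (0.85 ± 0.16) and PIK3CD (0.72 ± 0.16), and PDPK1, the kinase that activates AKT (0.85 ± 0.15). The other probe sets of PIK3CB (0.22 ± 0.41) and PIK3CD (-0.21 ± 0.28) did not pass. Nor did those of PDPK1, with differences from -0.15 to 0.44. All 3 probe sets of PIK3R1 passed in the same direction, but the brightest also lost its call without 10A/143B replicate 2 or 3 or 468/143B replicate 3 (adjusted p = 0.0524, 0.0721 and 0.0954). AKT1 had -0.27 ± 0.19 and AKT2 0.08 ± 0.18 (adjusted p = 0.434 and 0.842). Other probe sets of AKT2 ranged from -0.70 to 0.72 and did not pass, the latter narrowly (adjusted p = 0.0549). GSK3B, a kinase that AKT inhibits, did not pass on its brightest probe set (-0.47 ± 0.16, adjusted p = 0.0892). It passed there as lower with the replicate block (adjusted p = 0.0425) and with 6 separate arrays (adjusted p = 0.00461), whereas 2 dimmer probe sets were higher (1.88 ± 0.17 and 2.08 ± 0.28). Of the proteins that bind IGF2 mRNA, IGF2BP1 was lower on its brightest probe set (-1.42 ± 0.15, adjusted p = 0.00143), with 0.29 ± 0.15 on another of nearly the same brightness. IGF2BP3 was higher (0.78 ± 0.18, adjusted p = 0.0234, but 0.165 and 0.155 without replicate 1 of 10A/143B and of 468/143B and 0.0579 without replicate 3 of 468/143B), and IGF2BP2 differed by 0.08 ± 0.16. SOS2, the genes of the PI3K branch, GSK3B and IGF2BP3 were named after their values were seen.

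**Figure D4:**
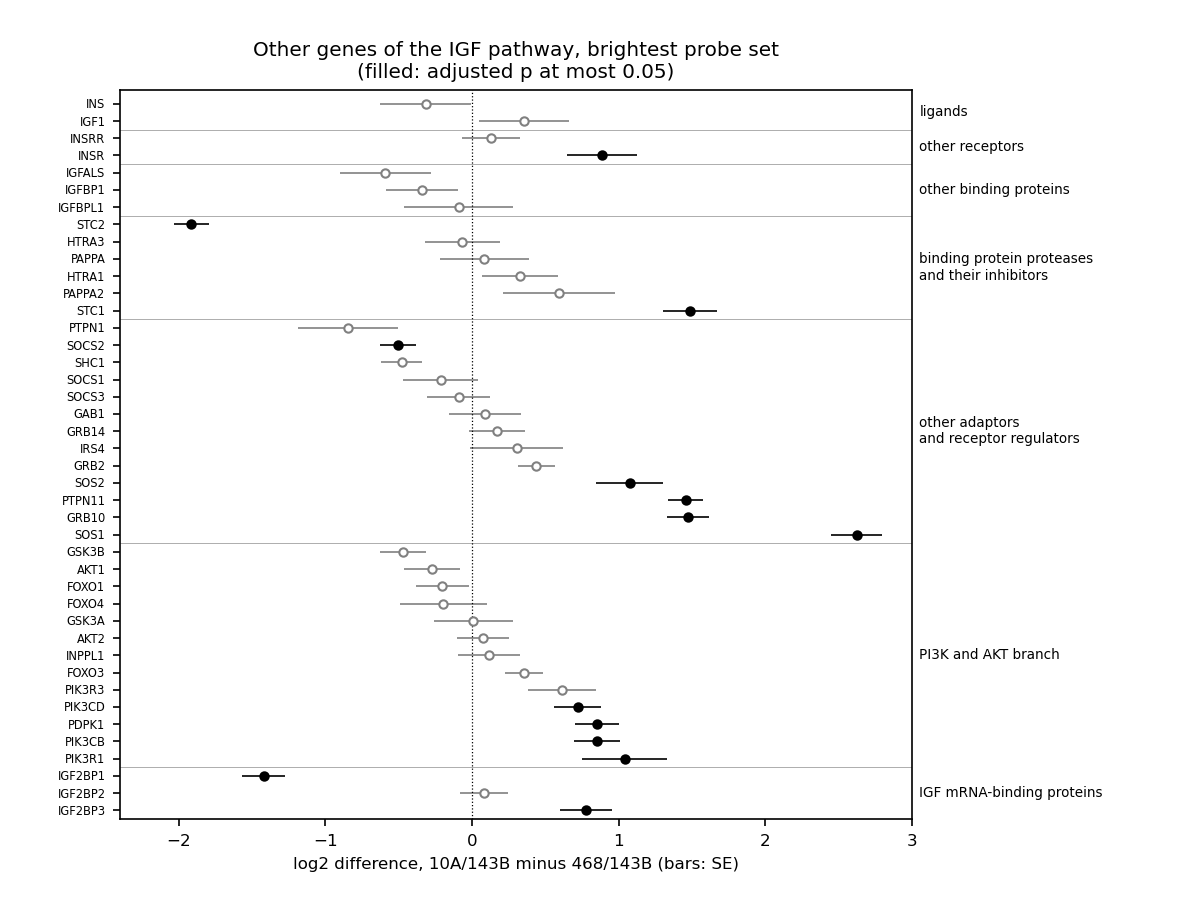
Log2 difference (10A/143B minus 468/143B, with SE) of the 42 other IGF pathway genes by brightest probe set, in 7 groups by role, with filled points where the adjusted p was at most 0.05. The 11 filled points on the right include SOS1 at 2.62 and STC1 at 1.49, and the 3 on the left are STC2 at -1.91, IGF2BP1 at -1.42 and SOCS2 at -0.50.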

How the data were processed

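RNA of the cybrids was hybridised to Affymetrix arrays, 3 per group, grouped and numbered by source name. The deposited values are linear intensities, a single value per probe set and array, from biotin-labelled total RNA per the labels. How they were background-corrected, summarised and scaled is not given in the sources used here. Detection calls were not used, and precision is limited by the number of arrays. Genes were named from the platform's probe table for 41091 probe sets with 1 symbol, 41037 of them updated through Entrez identifiers to RefSeq genes (GRCh38.p14, used for names, neighbours and length classes). The 62 control probe sets were left out.

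Values were used as log2(intensity + 16) without further normalization. Replicates 2 and 3 of each group were averaged, and limma 3.58.1 in R 4.3.3 (lmFit, eBayes with an intensity trend, tested on simulated data) compared 2 samples with 2 over 54613 probe sets. Every adjusted p is from limma. The brightest probe set (highest mean over 6 arrays) stands for a gene. Genes, lists and tests were chosen with earlier results of these data known. The rule for names took all 10 IGF genes, IGF1, IGF2, INS and INSR, up to 4 pathway genes with the largest change in each direction, the 3 closest profiles of the IGF genes that rose and fell most, and measured neighbours. Deviations of same-numbered arrays from their group means correlated at 0.278, 0.227 and 0.216 for numbers 1, 2 and 3. With replicates 2 and 3 nearly identical, these values mostly repeat the contrast of replicate 1 with the other arrays. The replicate block took the numbers to pair the samples, and the main fit used no pairing. The pairing comes from the data, not the labels, and numbers 2 and 3 were not told apart (0.257 and 0.206 when crossed). Alternatives covered separate arrays, the replicate block, offsets of 1 and 64, quantile and median scaling, no trend, filters on level and suffix, other gene summaries, and leaving out each array. Python 3.11.15 was used for tables and figures.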

Additional observations from a re-analysis of the deposited data

How the results depend on the processing

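Values of IGFBP2, IGFBP3 and IGFBP6 kept their direction and call under all alternatives run (from -1.41 to -1.13, -1.98 to -1.69 and -1.79 to -1.59, adjusted p at most 0.0439, 0.0434 and 0.0434). For IGFBP3 these were 17, because both of its probe sets are _s_at and the setting without _x_at and _s_at probe sets could not include it. IGF1R lost its call in 4 of 18 and IGFBP4 in 3 of 18, among them no intensity trend (adjusted p = 0.077 and 0.0709). The brightest probe sets of IGFBP7, IRS1 and IRS2, which had not passed, did so in 10, 3 and 7. Uncalled values turned sign for IGF2R without _x_at and _s_at probe sets (-0.14) and for IGFBP5 in that setting (-0.60) and as the mean of its probe sets (-0.19), because other probe sets then stand for the gene. With the replicate block 12 IGF probe sets, 18 pathway genes and 11933 of all probe sets were called, against 9, 14 and 8609. Separate arrays gave 14 IGF probe sets and 15293 of all, and with a replicate block as well 23 pathway genes and 16401 of all. One probe set per gene gave 4536 calls and averaging the probe sets of each gene 3219, both over fewer features. Leaving out each array gave 5 to 9 IGF probe sets, 6 to 13 pathway genes and 2071 to 8239 of all, lowest without a replicate 1. Where this left a group with 1 sample, that sample is assumed to vary like the other group's.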
